A study of Mus musculus with 7 samples.

Results

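The inflammasome and interleukin-1 genes comprised 10 members, Nlrp3, Pycard, Casp1, Casp4, Gsdmd, Il1a, Il1b, Il18, Il1rn and Aim2, out of 55341 gene names counted. They were chosen by name, with earlier results of these data known but by no rule on their values, and all 10 were among the 15257 genes that passed the filter on low counts. The libraries were bulk RNA-seq of CD11b+CD45low microglia, the resident macrophages of the brain, from female C57BL/6 mice carrying 5xFAD. These transgenes encode human APP and PS1 with mutations of familial Alzheimer's disease and are driven by the neuron-specific Thy1 promoter. Every recipient had embryonic cortical neurons of WT C57BL/6 mice injected into the cortex 4 weeks earlier, and the labels give an age of 14 weeks. Microglia were sorted from the dissected graft (inside, 3 libraries) or from small pieces of cortex near the transplant (outside, 4 libraries). Host and grafted tissue thus differ in transgene as well as in origin, and no cortex without a graft was among the groups. Whether libraries came from separate mice or from pools was not given in the sources used here, so that every P value measures the spread between these libraries.

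Inflammasomes are cytosolic complexes in which a sensor such as NLRP3 or AIM2 recruits the adaptor ASC, the product of Pycard, and activates caspase-1. Caspase-1 cleaves the precursors of IL-1β and IL-18 and opens gasdermin D pores, while caspase-11, the product of mouse Casp4, senses cytosolic lipopolysaccharide and also cleaves gasdermin D. IL-1α needs no inflammasome, and the antagonist encoded by Il1rn occupies the IL-1 receptor without signalling. In microglia of Alzheimer's disease models the NLRP3 complex is best known for its response to Aβ aggregates. These steps act largely on protein, and the libraries measured mRNA only.

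Transcript levels of most of the inflammasome machinery overlapped between microglia inside the graft and those of nearby cortex, whereas the antagonist Il1rn was measured 9.47-fold higher inside (edgeR adjusted P = 0.148). Values are given as CPM, counts relative to the total of the library after TMM scaling. Il1rn and Casp4 were higher in every inside library than in any outside library, Il18 was lower in every inside library, and the other 7 members overlapped between groups. Of all genes tested, 5.65% lay wholly above, 5.02% wholly below and 10.7% did not overlap in either direction. With the edgeR quasi-likelihood test and Benjamini-Hochberg adjustment over all genes, 0 of 10 members passed an adjusted P of 0.01, as did 0% of the genes tested. The limma test voomWithQualityWeights, which weights each library, likewise called 0 members at 0.01, where it called 0.0197% of genes. At 0.05 it called Il1rn higher inside, beside 0.492% of genes, 0.433% higher and 0.059% lower, and edgeR called 0 members beside 0.0983% of genes. At an unadjusted P of 0.05, 3 members passed in each test, beside 9.55% of genes with edgeR and 12.2% with voomWithQualityWeights. Il1rn and Casp4 were the members higher inside, where 5.76% of genes passed with edgeR and 7.47% with voomWithQualityWeights. Il18 was the member lower inside, where 3.79% and 4.71% of genes passed. Over the members, edgeR's log2 fold change (positive where the gene was higher inside) had a median of -0.06, with 5 genes above 0 and 5 below it. Over all genes tested the median was -0.0064, with 49.2% of them above 0.

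**Figure D1:**
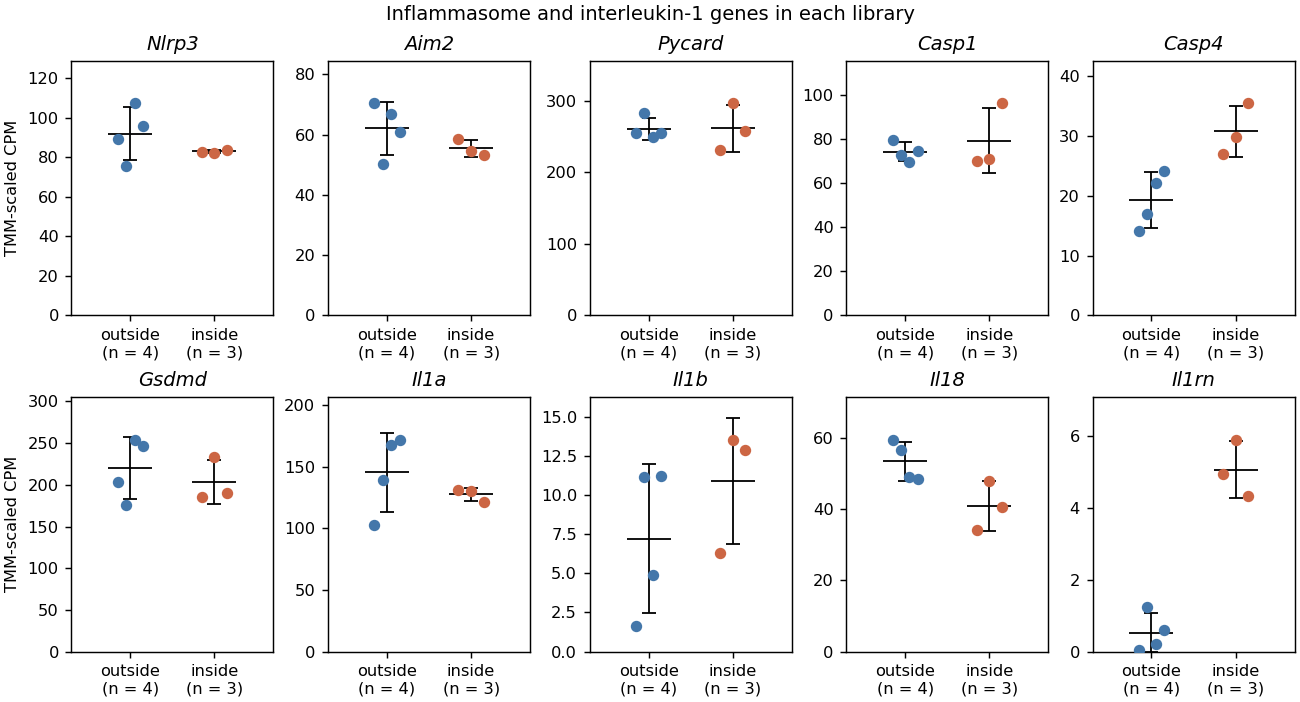
TMM-scaled CPM (counts relative to the library's total) of each gene, with 1 point per library, the mean as a horizontal bar and the SD as whiskers, for 4 outside (blue) and 3 inside (orange) libraries. Il1rn lay between 4.34 and 5.90 inside and at 1.25 or less outside, and Casp4 and Il18 also separated, while the other 7 genes overlapped.

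The windows around the transcription starts of the 3 members that did not overlap are shown first, since their values carry the result. Each runs from 250 bases before to 50 after a RefSeq start on GRCm38.p6, 5′ to 3′. Capitals mark matches on either strand to AP-1 (TGANTCA), C/EBP (TTGCNNCAA), a STAT element (TTCNNNGAA), PU.1 (GAGGAA), the interferon-stimulated response element or the NF-kappaB consensus. Il1rn has several RefSeq starts, of which the first and the last along the gene are printed, and for Casp4 the first of its entries.
Il1rn, chr2:24336610-24336909, plus strand: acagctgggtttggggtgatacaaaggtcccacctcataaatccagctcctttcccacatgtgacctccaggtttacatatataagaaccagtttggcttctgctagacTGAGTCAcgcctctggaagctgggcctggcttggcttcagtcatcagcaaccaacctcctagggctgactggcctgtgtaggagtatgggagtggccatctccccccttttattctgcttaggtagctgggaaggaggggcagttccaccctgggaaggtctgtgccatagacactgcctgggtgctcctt
Il1rn, chr2:24345121-24345420, plus strand: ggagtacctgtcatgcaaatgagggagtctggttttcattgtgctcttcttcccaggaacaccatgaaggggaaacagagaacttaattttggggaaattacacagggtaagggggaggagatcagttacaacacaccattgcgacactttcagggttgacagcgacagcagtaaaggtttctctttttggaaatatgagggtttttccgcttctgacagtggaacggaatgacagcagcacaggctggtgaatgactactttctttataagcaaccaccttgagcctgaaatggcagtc
Casp4, chr9:5308599-5308898, plus strand: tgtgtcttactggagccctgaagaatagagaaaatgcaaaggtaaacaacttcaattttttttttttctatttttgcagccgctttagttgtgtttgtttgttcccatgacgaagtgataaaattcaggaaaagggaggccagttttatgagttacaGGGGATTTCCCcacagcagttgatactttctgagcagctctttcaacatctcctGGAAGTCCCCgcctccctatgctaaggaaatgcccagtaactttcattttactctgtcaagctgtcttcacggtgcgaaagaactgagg
Il18, chr9:50554450-50554749, plus strand: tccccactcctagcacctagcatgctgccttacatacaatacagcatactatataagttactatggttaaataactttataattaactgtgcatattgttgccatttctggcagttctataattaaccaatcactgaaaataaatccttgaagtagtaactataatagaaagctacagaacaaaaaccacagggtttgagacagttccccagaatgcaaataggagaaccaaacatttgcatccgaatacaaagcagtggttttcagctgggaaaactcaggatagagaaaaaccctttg

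The first Il1rn window held 1 AP-1 match, 141 bases before the start, and the later window held none of the 6 motifs. An AP-1 match was found in 7.81% of the 32851 mouse promoter windows of this length. The Casp4 window held 3 NF-kappaB matches, of which the first, 93 bases before the start, and the next overlap by all but 1 base, and the last lay on the other strand 39 bases before the start. Such a match was present in 8.46% of all windows. No letters of these motifs stood in the Il18 window. The matches are descriptions of sequence and say nothing of binding in these cells. Of the other members, Il1a also held an AP-1 match, 12 bases before its start, and 1 Nlrp3 window held an NF-kappaB match. PU.1 matches stood in windows of Aim2, Il1a, Pycard, Casp1 and Nlrp3, and in 28.3% of all windows. For Gsdmd no window was printed or searched.

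Nlrp3 (chr11:59541568-59566956, plus strand; all gene positions are GENCODE M21 on GRCm38), the sensor of ion flux and membrane damage, measured 82.8, 82.1 and 83.8 CPM inside. Outside it measured 89.0, 75.6, 107.1 and 95.9 CPM. The inside libraries lay within 2 CPM of one another and inside the range of the outside ones, and the log2 fold change was -0.15 (SE 0.14, 95% interval -0.45 to 0.15; edgeR adjusted P = 0.819). Aim2 (chr1:173350879-173466040, plus strand), the sensor of cytosolic DNA and itself an interferon-inducible gene, measured 58.5, 54.5 and 53.2 CPM inside and 70.3, 50.2, 66.8 and 60.8 CPM outside. Its lowest library was an outside one, and the log2 fold change was -0.16 (SE 0.15; edgeR adjusted P = 0.819). Pycard (chr7:127989708-127993867, minus strand), the adaptor, measured 231, 296 and 259 CPM inside and 255, 283, 250 and 256 CPM outside. Both the highest and the lowest Pycard library came from inside the graft, and the log2 fold change was 0.0054 (edgeR adjusted P = 0.995).

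The caspases differed from each other in their pattern. Casp1 (chr9:5298517-5307265, plus strand), whose product matures IL-1β and IL-18, measured 70.2, 71.2 and 96.2 CPM inside and 79.8, 72.7, 69.7 and 74.6 CPM outside. Only inside graft 3 exceeded the outside libraries, and the log2 fold change of 0.09 (SE 0.14; edgeR adjusted P = 0.909) turned to -0.071 without that library. Casp4 (chr9:5308828-5336783, plus strand), its neighbour on the chromosome, measured 27.0, 29.9 and 35.4 CPM inside. Outside it measured 14.0, 16.9, 22.2 and 24.1 CPM, from 263 to 595 counts per library, so that the groups separated by a small gap. The log2 fold change was 0.67 (SE 0.22, 95% interval 0.18 to 1.16), a 1.59-fold higher level, with an unadjusted P of 0.0127 and an adjusted P of 0.312 in edgeR. With voomWithQualityWeights the log2 fold change was 0.52 and the adjusted P 0.303. Gsdmd (chr15:75862327-75867408, plus strand), the pore-forming substrate of both caspases, measured 185, 234 and 191 CPM inside and 204, 176, 254 and 247 CPM outside. The groups overlapped, with a log2 fold change of -0.12 (SE 0.15; edgeR adjusted P = 0.89).

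**Figure D2:**
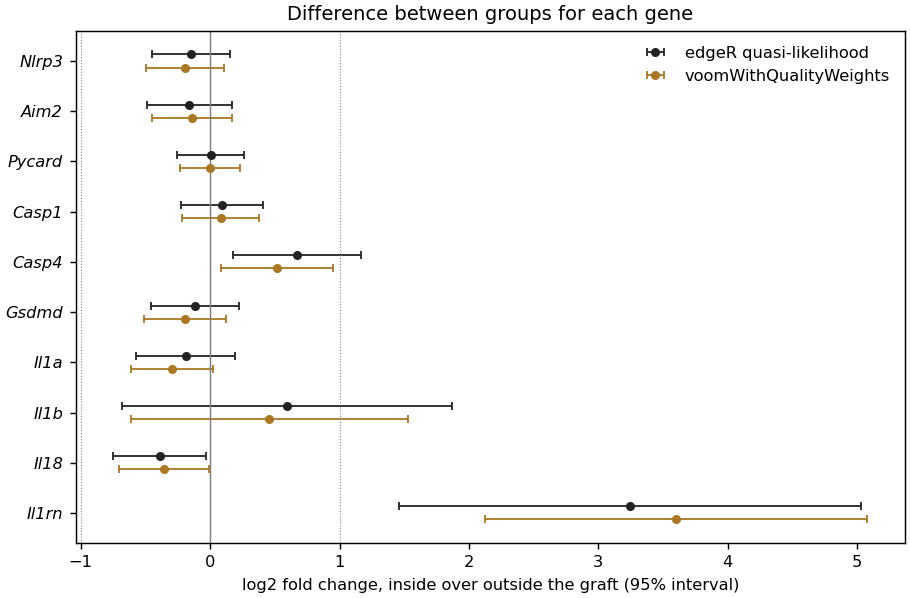
Log2 fold change of each gene, inside over outside the graft, with its 95% interval, from edgeR (black) and voomWithQualityWeights (brown). Dotted lines mark a change of 1 on the log2 scale, and 7 of 10 edgeR intervals lie between them, all but those of Casp4, Il1b and Il1rn.

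Among the cytokines, Il1a (chr2:129299610-129309972, minus strand) was by far the more abundant IL-1 transcript. It measured 131, 130 and 122 CPM inside and 103, 140, 167 and 172 CPM outside. The inside libraries fell between the outside ones, and the log2 fold change was -0.19 (SE 0.17; edgeR adjusted P = 0.816). Il1b (chr2:129364570-129371139, minus strand), which in microglia is transcribed after priming through NF-kappaB, measured 6.28, 13.5 and 12.8 CPM inside and 1.60, 11.1, 4.87 and 11.2 CPM outside. It was the most variable of the cytokines, with 30 to 305 counts per library, and an inside library lay below a pair of outside ones. Its log2 fold change of 0.60 had an interval from -0.68 to 1.87 (SE 0.57; edgeR adjusted P = 0.835) and covered both directions. For each 100 counts of Il1a there were 4.78, 10.4 and 10.6 counts of Il1b inside and 1.56, 7.96, 2.91 and 6.49 outside, which overlapped.

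Il18 (chr9:50554827-50581840, plus strand), made as a precursor by resting microglia, measured 34.0, 47.9 and 40.7 CPM inside and 59.6, 56.6, 49.2 and 48.6 CPM outside. Every inside library was below every outside one, but the highest inside and the lowest outside value were less than 1 CPM apart. The log2 fold change was -0.39 (SE 0.16, 95% interval -0.75 to -0.029), 0.764 of the outside level, with an unadjusted P of 0.0366 and an adjusted P of 0.471 in edgeR. In bulk libraries, fewer cells that transcribe a gene and less RNA per cell cannot be told apart. The summed CPM of 9 microglia markers also ran lower inside, from 36233 to 42579 against 42559 to 45723, with all 9 log2 fold changes below 0 and a median of -0.19. The part of this in the Il18 value was not tested.

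Il1rn (chr2:24336853-24351494, plus strand), which encodes the secreted and the intracellular receptor antagonist, had the largest difference of the 10 members. It measured 4.95, 5.90 and 4.34 CPM inside, from 126, 133 and 103 counts. Outside it measured 0.0534, 1.25, 0.201 and 0.607 CPM, from 1, 28, 5 and 15 counts. Each inside library was thus well above the highest outside one, and the outside libraries, with few counts, spread widely. The means were 5.06 ± 0.788 CPM (SD, n = 3) inside and 0.527 ± 0.533 CPM (SD, n = 4) outside. The log2 fold change was 3.24 (SE 0.80, 95% interval 1.46 to 5.03), with an unadjusted P of 0.00233 and an adjusted P of 0.148 in edgeR, and was 4.09 without outside graft 2. With voomWithQualityWeights it was 3.60 (SE 0.67, 95% interval 2.12 to 5.07; adjusted P = 0.0479), and leaving out any 1 library raised that adjusted P to between 0.0517 and 0.285. DESeq2, a further count test, gave 3.28 with an adjusted P of 0.00384, so the call at 0.01 depended on the test and the direction did not.

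Set against its agonists, Il1rn reached 3.59, 4.11 and 3.23 counts per 100 counts of Il1a and Il1b together inside the graft. Outside, the ratio was 0.0511, 0.825, 0.117 and 0.331. The groups did not overlap, and the mean ratio was 3.64 inside and 0.331 outside, or 0.166 without outside graft 2, the outside library with the highest ratio. Il1a, which overlapped between groups, made up most of the denominator. Against Il1b alone the ratio was 78.8, 43.6 and 33.8 inside and 3.33, 11.2, 4.13 and 5.43 outside, again without overlap.

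**Figure D3:**
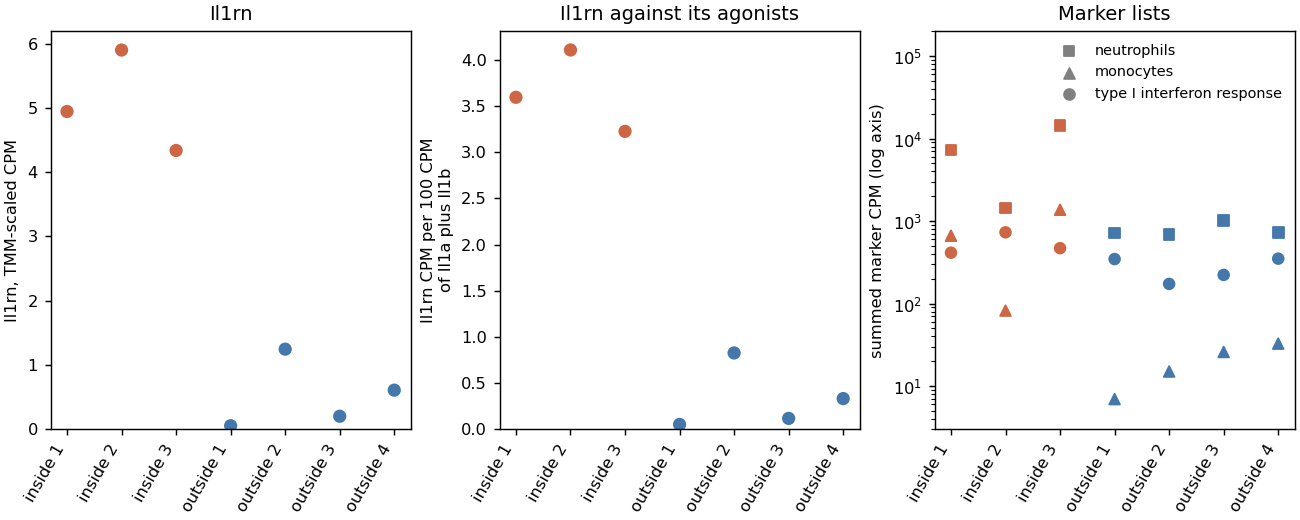
Il1rn CPM, Il1rn counts per 100 counts of Il1a and Il1b, and the summed CPM of marker lists (log axis) in each inside (orange) and outside (blue) library. Il1rn and its ratio were highest in inside graft 2, though the inside libraries had only 103 to 133 Il1rn counts. There the neutrophil and monocyte sums were lowest of the inside libraries and the interferon sum was highest. Among the outside libraries, Il1rn was highest in outside graft 2, at 1.25 CPM, where the neutrophil sum (687) and the interferon sum (173) were lowest. The part of these lists in the Il1rn values was not tested.

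Markers of other cells moved with the groups and are given beside these values. The summed CPM of 10 neutrophil markers was 7272, 1443 and 14356 inside and 687 to 1017 outside. Without Csf3r, the most abundant of them in the outside libraries, the sums were 6501, 653 and 13644 inside against 0.640, 0.311, 305 and 19.1 outside. All 9 tested neutrophil markers had a log2 fold change above 0, 5 of them without overlap, and none was at 0 in every library. The leading markers were Ngp (2020, 182 and 3930 CPM inside) and S100a8 (1953, 208 and 4077 CPM inside), both below 100 CPM in each outside library. Monocyte markers, led by Chil3 and Ccr2, summed to 664, 82.1 and 1372 CPM inside and 6.94 to 32.6 outside. Of 7 tested, 6 were above 0 and 2 lay wholly above the outside libraries. Most of each inside sum was Chil3, at 587, 67.6 and 1189 CPM, which ranked the inside libraries as Ngp and S100a8 did. Ccr2 overlapped between groups, with 31.8, 4.26 and 73.0 CPM inside and 4.06 to 18.1 outside. Whether the monocyte sums separate without Chil3 was not tested. Markers of border-associated macrophages, led by Mrc1 and F13a1, summed to 113, 16.7 and 121 CPM inside and 5.96 to 17.8 outside, with 6 of 6 tested above 0. Neutrophils and monocytes are known to transcribe Il1rn and Il1b, and the sort was for CD45low cells with antibodies to Ly6C and Ly6G among the lineage markers of the gating. Il1rn was highest in inside graft 2, which had the lowest sum of all 3 lists among the inside libraries. Inside graft 2 alone against the 4 outside libraries gave a log2 fold change of 3.47 for Il1rn and of 0.63 for Casp4 in edgeR. This comparison was chosen after seeing the data. Inside graft 2 had the highest Il1rn, so a high fold change of Il1rn was set in advance. Its neutrophil sum without Csf3r, 653 CPM, was still above that of every outside library. With 1 inside library the spread comes from the outside libraries, so the comparison is given as a value without a test. The part of neutrophils, monocytes and border-associated macrophages in the Il1rn, Il1b and Casp4 values was not tested.

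Genes of the type I interferon response, Oasl2 among the most abundant, summed to 413, 730 and 469 CPM inside and 173 to 350 outside, with 10 of 10 above 0 and 6 without overlap. Proliferation markers, led by Mki67 and Top2a, summed to between 71.2 and 108 CPM inside and 5.95 to 33.6 outside. All 5 were above 0 and lay wholly above the outside libraries, beside 5.65% of all genes tested. With voomWithQualityWeights, Top2a (adjusted P = 0.0316) and Birc5 (adjusted P = 0.0482, named after its values were seen) passed 0.05, beside 0.433% of genes higher inside. In edgeR 0 of the 5 did. Immediate early genes that dissociation induces, led by Jun and Junb, summed to 502 to 665 CPM inside and 483 to 636 outside, and their sums overlapped. Of the 9 tested, 6 were above 0, with a median log2 fold change of 0.72, and 3 lay wholly above the outside libraries. These were Atf3 (50.1 against 25.8 CPM on average), Ier2 (22.8 against 13.9) and Hspa1a (2.04 against 0.212), named after their values were seen. The 3 below 0 were the more abundant Jun (152 against 185 CPM), Junb (169 against 177) and Zfp36 (161 against 169). Jun had a log2 fold change of -0.36 in voomWithQualityWeights (unadjusted P = 0.0118, adjusted P = 0.237). The part of these 3 lists in the Il1rn and Casp4 values was not tested. Markers of dendritic cells (led by Itgae and Siglecg), neurons (Snap25 and Rbfox3) and oligodendrocytes (Mbp and Mag) also overlapped in their sums. Those of astrocytes summed to 247 to 298 CPM inside and 326 to 350 outside, nearly all from Slc1a3 (268 against 338 CPM on average). Aldh1l1, the next, averaged 6.55 CPM inside and 1.08 outside, 2 of 4 tested genes were above 0, and Gja1 was at 0 throughout. Lymphocyte markers came to 525 to 583 CPM inside and 569 to 636 outside, nearly all Ighm, followed by Nkg7. Without Ighm, the sums were 2.71, 1.82 and 13.3 CPM inside and 0.0534, 0.667, 1.25 and 0.283 outside, without overlap. Nkg7 measured 2.36, 0 and 11.96 CPM inside and was at 0 in every outside library. Ms4a1 and Ncr1 were at 0 in every library. Of the microglia markers, Cx3cr1 stood at 6195 CPM or more in every library, as the labelled cell type requires. It was nonetheless lower in every inside library (at most 6915 CPM) than in any outside one (at least 6953). Among the 9 microglia markers, 3 lay wholly below the outside libraries, beside 5.02% of all genes. At an unadjusted P of 0.05, 5 were lower inside in each test, beside 3.79% of genes in edgeR and 4.71% in voomWithQualityWeights.

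Per kilobase of exon, so that genes can be compared, the members ranked Gsdmd, Il1a, Pycard, Casp1, Il18, Nlrp3, Aim2, Casp4, Il1b and Il1rn by the mean over 7 libraries. Gsdmd reached 92.7 ± 15.6 CPM per kilobase outside (SD, n = 4) and Il1rn 0.0952 ± 0.0963. Neighbours in this order whose outside libraries overlapped were Gsdmd and Il1a, Il1a and Pycard, Casp1 and Il18, Nlrp3 and Aim2, and Casp4 and Il1b. The other neighbouring pairs did not overlap outside. Inside, the neighbours that overlapped were Il1a and Pycard, with 64.7 ± 2.67 and 68.9 ± 8.66 CPM per kilobase (SD, n = 3), and Pycard and Casp1, the latter with 52.9 ± 9.84. Even inside the graft Il1rn was the lowest of the members, at 0.915 ± 0.142 CPM per kilobase. Counting without strand does not separate reads of genes that overlap on opposite strands, so counts over shared exons are uncertain. Exons of Pycard overlap Gm45205 over 485 bases, those of Il1a overlap Gm14023 over 222 bases, and those of Il1b overlap Il1bos over 25 bases. These partners had at most 50, 391 and 18 counts per library, and no exon of the other 7 members overlaps another gene.

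Genes around the members were read from 6 lists by role, together 54 genes, 44 of them tested, of which none passed an adjusted P of 0.01 in either test. Of 10 other sensors, 7 were tested, with a median log2 fold change of 0.20, and 0 passed an unadjusted P of 0.05. Naip6, a NAIP-family receptor for bacterial proteins, had the largest value of those at 1 CPM or more, 0.21 (SE 0.15; edgeR adjusted P = 0.746). Nlrp1a followed with 0.20 (edgeR adjusted P = 0.951), and both overlapped between groups. Of 13 regulators and effectors around the inflammasome, all were tested, with a median of -0.06. In this list 1 gene was higher and 2 were lower at an unadjusted P of 0.05 in edgeR, beside 5.76% and 3.79% of all genes. With voomWithQualityWeights 0 were higher and 2 lower, beside 7.47% and 4.71%. Without overlap, 2 lay above and 3 below the outside libraries, beside 5.65% and 5.02% of all genes.

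Serpinb1a, a serpin that inhibits neutrophil proteases and restrains inflammatory caspases, measured 56.4, 5.46 and 92.0 CPM inside and 0, 0, 2.05 and 0 CPM outside. Its inside values rank the libraries as the neutrophil sums do, and the part of neutrophils in them was not tested. The log2 fold change was 6.55 (SE 1.28; edgeR adjusted P = 0.0907, voomWithQualityWeights 0.449). Casp12, a relative of Casp4, measured 8.67, 10.3 and 10.2 CPM inside and 5.07 to 8.38 outside, with a log2 fold change of 0.50 (edgeR adjusted P = 0.649). Txnip, which binds thioredoxin and NLRP3, and Ninj1, which ruptures the membrane after pore formation, were the genes lower at an unadjusted P of 0.05 in edgeR. They were named after their values were seen. Txnip averaged 362 CPM inside and 472 outside (log2 fold change -0.38, edgeR adjusted P = 0.389) and Ninj1 58.5 and 71.4 CPM (log2 fold change -0.29, edgeR adjusted P = 0.509).

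**Figure D4:**
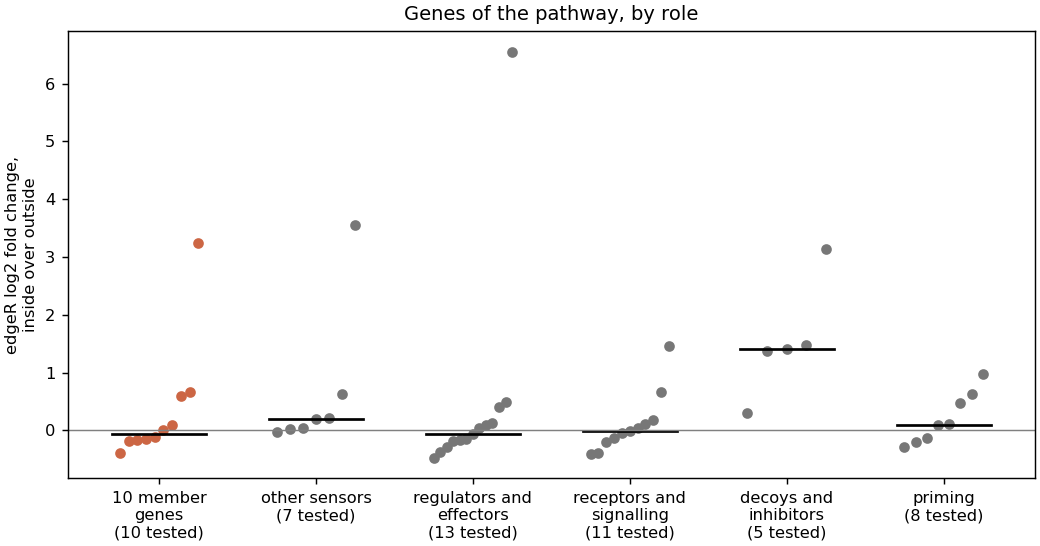
EdgeR log2 fold change, inside over outside, of the 10 members (orange) and of the tested genes of 5 lists around them (grey), with the median of each as a bar. The decoys and inhibitors have a median of 1.41 and all 5 genes above 0, while the other medians lie between -0.06 and 0.20. The median of 1.41 is the value of Sigirr, which averaged 1.05 CPM and overlapped between groups.

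The decoys and inhibitors, to which Il1rn belongs by function but not by list, had 5 of 5 genes tested and all 5 log2 fold changes above 0, with a median of 1.41. Of the 5 genes, 3 passed an unadjusted P of 0.05 higher inside in edgeR, beside 5.76% of all genes tested. In voomWithQualityWeights 2 did, beside 7.47%, and 0 passed an adjusted P of 0.05 in either. Il1r2, the decoy receptor that binds IL-1 without signalling, measured 4.28, 0.222 and 3.67 CPM inside and 0 to 0.648 outside. It was high in the inside libraries with high neutrophil markers and overlapped the outside ones in inside graft 2 (log2 fold change 3.14, SE 1.13; edgeR adjusted P = 0.374). Irak3, the kinase homologue that blocks signalling from IL-1 and Toll-like receptors, measured 22.1, 14.2 and 22.0 CPM inside and 0.587, 10.1, 7.44 and 9.56 outside. It did not overlap (log2 fold change 1.48, SE 0.64; edgeR adjusted P = 0.493). Il18bp, the soluble trap for IL-18 and named here after its values were seen, measured 10.4, 28.7 and 14.2 CPM inside and 10.5, 6.14, 6.32 and 4.62 outside. Its highest library was inside graft 2, where the interferon sum was highest, and it overlapped by 1 pair of libraries (log2 fold change 1.37, SE 0.39; edgeR adjusted P = 0.22). The part of neutrophils in the Il1r2 values and of the interferon response in the Il18bp values was not tested.

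Of 12 receptor and signalling genes, 11 were tested, with a median log2 fold change of -0.0156. In edgeR 1 of them, Il18rap, passed an unadjusted P of 0.05, beside 9.55% of all genes. With voomWithQualityWeights 2 did, both higher inside, beside 7.47% of genes higher. Myd88, the adaptor that IL-1 receptors share with Toll-like receptors and named after its values were seen, averaged 85.5 CPM inside and 98.1 outside (edgeR adjusted P = 0.674). Il18rap, a chain of the IL-18 receptor, measured 7.07, 3.24 and 8.13 CPM inside and 0.526 to 3.84 outside, with a log2 fold change of 1.46 (SE 0.61; edgeR adjusted P = 0.474). Il1r1, the signalling receptor on which the antagonist acts, measured 11.5, 4.53 and 4.51 CPM inside and 9.29, 4.18, 1.61 and 2.35 outside. It overlapped, with a log2 fold change of 0.66 in edgeR (adjusted P = 0.825) and 1.38 in voomWithQualityWeights (adjusted P = 0.287). The 6 other ligands of the IL-1 family were not tested because of low counts, and Il1f6, Il1f8 and Il1f10 were at 0 in every library.

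Of the 8 genes of priming through Toll-like receptors and NF-kappaB, all were tested, with a median log2 fold change of 0.10. In edgeR 5 were above 0 and 3 below it, and Tlr2 alone passed an unadjusted P of 0.05, beside 9.55% of all genes. With voomWithQualityWeights 2 genes passed that threshold higher and 2 lower, beside 7.47% and 4.71% of all genes. The lower ones, named after their values were seen, were Tlr4 (-0.31, voomWithQualityWeights adjusted P = 0.403) and Nfkb1 (-0.26, voomWithQualityWeights adjusted P = 0.379). Tlr2, a receptor for bacterial lipopeptides also engaged by Aβ, measured 330, 406 and 362 CPM inside and 251, 245, 213 and 235 outside. The groups did not overlap, and the log2 fold change was 0.64 (SE 0.11), with an adjusted P of 0.0728 in edgeR and 0.0367 in voomWithQualityWeights. Tnf, a cytokine induced by the same priming as Il1b, measured 6.04, 8.92 and 8.30 CPM inside and 1.39, 6.45, 4.79 and 3.16 outside, overlapping by 1 pair of libraries (log2 fold change 0.97, SE 0.48; edgeR adjusted P = 0.572).

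Across the 7 libraries, the genes most like a member were found by Pearson's r of log2(CPM + 0.5) among 8917 tested genes at a mean of 10 CPM or more. For Il1b these were Rrp8, Map3k9 and Cactin, with r between 0.968 and 0.970. For Casp1 they were Exoc1, Eif5 and Mcm9 (r 0.949 to 0.960), and for Nlrp3 Pnpla2, Tubgcp5 and Nae1 (r 0.963 to 0.976). For Il1rn, added after its values were seen, they were Cenpa, Nrp1 and Cd274 (r 0.980 to 0.985). The 7 libraries differed in depth, and the 2 groups differed in their sums of neutrophil and proliferation markers. The r values therefore describe the libraries and carry no test.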

How the data were processed

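Bulk RNA-seq of sorted microglia from inside (3 libraries) and outside (4 libraries) WT grafts was analysed, with groups taken from the sample titles. The authors converted single reads with bcl2fastq 2.18, aligned them with STAR 2.7.2a to GENCODE M21 (GRCm38.p6) and deposited the raw read counts that featureCounts 1.6.2 gave for each gene name, without strand and without reads that aligned to several places. No normalization was applied to the deposited counts. Totals ran from 18644807 to 25882122 per library. Intervals of amplified reads without molecular identifiers cover counting error and the spread of libraries only.

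From these counts, genes were filtered with filterByExpr, scaled with TMM and tested with edgeR 4.0.16 (glmQLFit, glmQLFTest) and limma 3.58.1 (voomWithQualityWeights, eBayes) in R 4.3.3, with Benjamini-Hochberg adjustment over 15257 genes and a threshold of 0.01. The latter is the test of the study's methods. Library weights ran from 0.448 in outside graft 1 to 1.76 in outside graft 4. DESeq2 1.42.0, other scalings, filters and thresholds, a replicate block and each library left out were alternatives. Standard errors of edgeR were taken from the F statistic. Scripts were tested on simulated data. The members and lists were chosen with earlier results of these data known. Named were all members, of each list any gene past an adjusted P of 0.05 and the 2 with the largest fold change at a mean of 1 CPM or more, the 2 most abundant genes of each marker list and markers at 0, apart from a few that are not reported here, and the 3 genes most like Il1b, Casp1 and Nlrp3. Promoter windows were taken from RefSeq, in which 9 members had entries. No pair of libraries of a group agreed within counting noise (chi-square per degree of freedom at least 16.6).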

Additional observations from a re-analysis of the deposited data

Results flagged for a closer look

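Of 66 values checked within the 4 outside libraries, for members, list genes, marker sums, the Il1rn ratio and library totals, 6 had a highest or lowest library far from the others by Dixon's criterion, where chance alone gives about 1 in 20, or 3.3. None of the 10 members was among them. Casp8 was low in outside graft 1, at 173 CPM. Irak2 was high in outside graft 4, at 154.5 CPM. Serpinb1a was detected outside the graft only in outside graft 3, at 2.05 CPM, the library in which the neutrophil markers also summed highest, to 1017 CPM. The dendritic cell markers summed lowest in outside graft 1, to 14.5 CPM, as did the immediate early genes, to 483 CPM. Outside graft 1 had the smallest total and the lowest weight, and it also had the lowest Il1rn, Il1b, Il1a and Casp4 of the 4 outside libraries.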

How the results depend on the processing

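Il1rn kept its direction under all 16 alternatives that gave a value, with a log2 fold change from 2.88 to 4.09 and an adjusted P from 0.00384 to 0.329 where each group kept at least 2 libraries. Only DESeq2 brought it below 0.01, with 3.28. A filter of 10 counts in every library removed it. Without any filter its adjusted P was 0.0321 in edgeR and 0.0295 in voomWithQualityWeights. Casp4 (0.52 to 0.81), Il1b (0.27 to 1.20), Il18 (-0.52 to -0.16), Il1a (-0.32 to -0.07), Aim2 (-0.25 to -0.096) and Nlrp3 (-0.23 to -0.066) kept their direction under 17 alternatives without passing 0.01. Pycard, near 0, turned below it with library size alone (-0.032), limma-voom without weights (-0.0026), the replicate block (-0.0083) and voomWithQualityWeights (-0.0012), and ranged from -0.092 to 0.091 with each library left out. Casp1 ranged from -0.071 to 0.178 with each library left out and was -0.057 with inside graft 2 alone, where Gsdmd was 0.090. The cause of these turns was not tested. Inside graft 2 alone, and voomWithQualityWeights as an alternative for these fold changes, were added after seeing the data.

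At 0.01, edgeR called 0 genes higher and 0 lower. No filter gave 186 and 4, DESeq2 185 and 47, at least 10 counts 20 higher, limma-voom without weights 1 and a threshold of 0.05 gave 15. With each library left out it was 0 to 1. The replicate block, for which outside graft 4 was left out, gave 5 with edgeR and, with voomWithQualityWeights, 76 higher and 1 lower. VoomWithQualityWeights called 3 higher, and 1 with library size alone, 30 and 11 lower without a filter, 47 and 1 lower with at least 10 counts, 66 and 9 lower at 0.05, and 0 to 33 with each library left out. The list genes gained 1 call without a filter and with DESeq2, and with voomWithQualityWeights 1 without a filter, with at least 10 counts, at 0.05 and with the block. Of the members, 1 was called by DESeq2 and 1 by voomWithQualityWeights at 0.05, Il1rn in both. Same-numbered libraries correlated at -0.112, 0.21 and 0.199, which does not establish a pairing by number, and the labels give none. Against Il1b alone the mean Il1rn ratio was 52.0 inside and 6.03 outside, and per kilobase it was 1.30 inside. Depth limits Il1rn most, at 1 to 28 counts per outside library.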
